A study of Mus musculus with 4 samples.

Results

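Matrix metalloproteinases (MMPs) and their tissue inhibitors (TIMPs) were followed in brown adipose tissue of WT and Ebf2 KO mice. The family was defined by gene symbol, as Mmp2, Mmp3, Mmp11, Mmp14, Mmp15, Mmp19 and Timp1 to Timp4, and 9 of these 10 genes are among the 12165 genes of the deposited table. Mmp3 is not listed there, so its level is not analysed here; the highest library of each listed gene was at 0.502 RPKM or more. The tissue came from mice aged 8 weeks of mixed strain that were kept on chow at room temperature, 2 libraries per genotype (WT and Ebf2 KO), and polyadenylated RNA was sequenced. How the Ebf2 allele was made, the sex of the mice, and whether a library is 1 animal or a pool are not stated in the labels, so p-values measure the spread between these libraries. Ebf2 encodes a transcription factor of brown fat cells and their precursors.

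MMPs are zinc-dependent endopeptidases that cut collagens and other proteins of the extracellular matrix, and they are made as inactive precursors. TIMPs bind the active site of MMPs and block it. MMP14, which sits in the cell membrane, also uses TIMP2 as a bridge to capture and activate the precursor of MMP2, so TIMP2 takes part in both inhibition and activation. In adipose tissue these proteins remodel the collagen network around fat cells as the tissue grows and as precursors differentiate.

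The coding exon stretch of 33 bases around the catalytic zinc is shown for each of the 5 measured MMPs. The sequences come from GENCODE M21 transcripts (GRCm38), and capitals mark the codons of the 3 histidines that hold the zinc. Each stretch was located by a search for the zinc-binding pattern, so the histidines are shared by choice.
Mmp2: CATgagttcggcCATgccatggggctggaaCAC
Mmp11: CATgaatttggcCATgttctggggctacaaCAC
Mmp14: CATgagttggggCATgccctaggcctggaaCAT
Mmp15: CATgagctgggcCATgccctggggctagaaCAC
Mmp19: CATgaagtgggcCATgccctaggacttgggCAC
In GRCm38 these stretches lie at chr8:92839279-92839311 (plus strand, exon 8 of Mmp2), chr10:75926931-75926963 (minus strand, exon 5 of Mmp11), chr14:54437627-54437659 (plus strand, exon 5 of Mmp14), chr8:95368585-95368617 (plus strand, exon 5 of Mmp15) and chr10:128795673-128795705 (plus strand, exon 5 of Mmp19). Mmp2 and Mmp15 were the most alike, with 29 of 33 bases identical. The least alike pairs were Mmp11 with Mmp14 and Mmp11 with Mmp19, with 23 bases identical in each.

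Expression was read as RPKM, reads scaled by the length of the gene and by the total reads of the library. On the log2(RPKM + 1) scale, Mmp2 and Timp2 were the members with the largest difference between the genotypes, and Timp4 and Mmp15 had the smallest. After each library was centred on its own median, Mmp2 and Timp2 still had the largest difference, and Timp3 had the smallest. RPKM was scaled to library totals of 199678916 and 176574890 reads for WT replicates 1 and 2, and 176568920 and 162782640 reads for Ebf2 KO replicates 1 and 2. Between 136 and 27039 reads stood behind each value of a member. RPKM of most genes was higher in Ebf2 KO: the median gene differed by 0.46 on the log2(RPKM + 1) scale, and 65.4% of all genes had both Ebf2 KO libraries above both WT libraries, against 9.3% with both below. Differences are therefore given on RPKM and again after each library was centred on its own median. The tissue and the genotype were checked first. Ucp1, the uncoupling protein of brown fat, was at 5018 and 5733 RPKM in WT and at 7.39 and 2.86 in Ebf2 KO. Ebf2 was at 2.97 and 2.63 RPKM in WT and at 0.391 and 0.352 in Ebf2 KO. Xist, the RNA that silences 1 X chromosome in females, had 5.05 and 6.19 RPKM in WT. It had 5.49 RPKM in Ebf2 KO replicate 1 and 0.0353 RPKM in Ebf2 KO replicate 2. Calls were also made with each library left out in turn, as planned beforehand. Some of the counts that change without Ebf2 KO replicate 2 are given with the change. Others, among them counts of skeletal muscle and brown fat markers and rises of general and white adipocyte markers, are not given without that library.

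On RPKM, 6 of the 9 measured members rose in Ebf2 KO and 0 fell, at an adjusted p under 0.05 in limma's test on log2(RPKM + 1), adjusted over all 12165 genes; the difference was above 0 in all 9, so 0 were lower at an unadjusted p under 0.05 as well. The risers were Mmp2, Mmp11, Mmp19, Timp1, Timp2 and Timp3. Over all genes 24.4% were called higher and 3.54% lower by that test. After centring, 3 members were called higher (Mmp2, Mmp19 and Timp2) and 0 lower, beside 8.42% and 10.3% of all genes. The authors' deposited table called the same 3 members higher and 0 lower at an FDR under 0.05, beside 10.9% and 10.5% of all genes. The median log2 difference of the 9 members was 0.98 on RPKM and 0.46 after centring, where the median of all genes was 0.46 and -0.070. Without Ebf2 KO replicate 2, fewer members were called on RPKM (Mmp2, Mmp19 and Timp2 remained), and fewer of all genes as well. After centring, the same held without WT replicate 1, where only Mmp2 remained among the members.

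**Figure D1:**
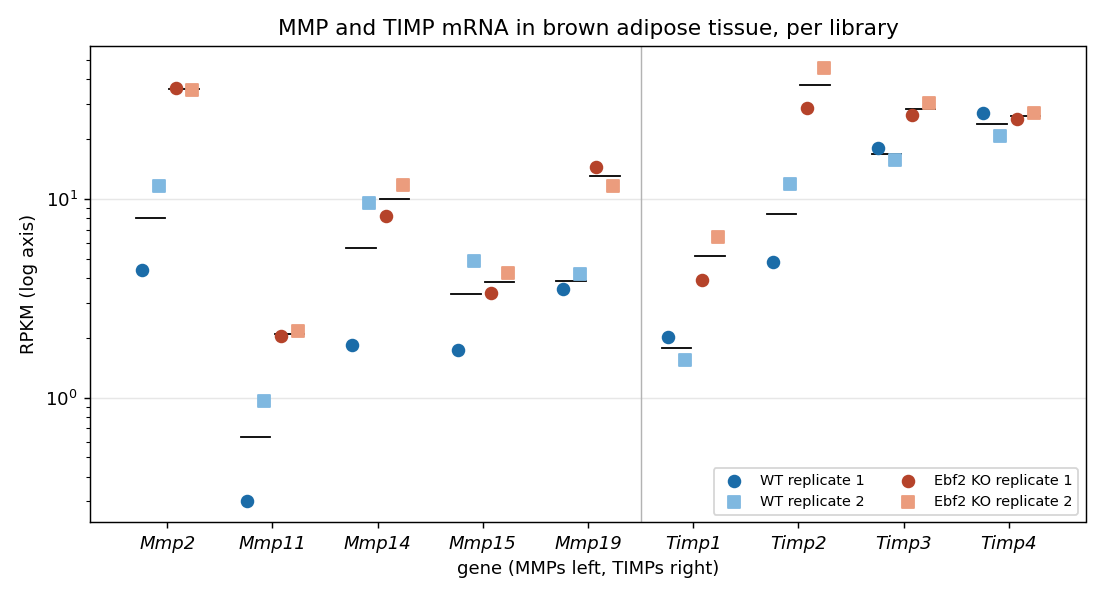
RPKM (log axis) of the 5 MMPs and 4 TIMPs in each of the 4 libraries; points are libraries, short lines are genotype means (n = 2). Both Ebf2 KO points lie above both WT points for Mmp2, Mmp11, Mmp19, Timp1, Timp2 and Timp3, as for 65.4% of all genes, and the genotypes overlap for Mmp14, Mmp15 and Timp4.

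Among the secreted enzymes, Mmp2, which encodes gelatinase A, stood at 4.39 and 11.6 RPKM in WT replicates 1 and 2 and at 36.1 and 35.5 RPKM in Ebf2 KO replicates 1 and 2. The WT libraries differed 2.65-fold from each other, whereas the Ebf2 KO libraries were nearly equal and both far above WT. The mean went from 8.00 ± 5.11 to 35.8 ± 0.408 RPKM (SD, n = 2 each), a 4.47-fold rise. On the log2(RPKM + 1) scale the difference was 2.16 (SE 0.372, limma adjusted p = 0.00921), and after centring it was 1.63 (SE 0.307, limma adjusted p = 0.00554). The log2 difference was 1.54 without WT replicate 1 and 2.77 without WT replicate 2. Mmp2 passed the threshold in each of the 16 settings computed. With its high level in Ebf2 KO, Mmp2 made up 56.3% and 54.4% of the summed RPKM of the 5 MMPs there, compared with 37.1% and 37.2% in WT.

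Mmp19, a secreted MMP that cuts components of basement membranes, was at 3.53 and 4.20 RPKM in WT and at 14.4 and 11.6 RPKM in Ebf2 KO. The libraries of each genotype lay close together and the genotypes did not overlap. The rise was 3.37-fold, with a log2 difference of 1.52 (SE 0.238, limma adjusted p = 0.00697), and 0.997 after centring (SE 0.237, limma adjusted p = 0.0155). The centred call was lost without either WT library and without Ebf2 KO replicate 1. Of the exon bases of Mmp19 in GENCODE M21, 22.3% are shared with Tmem198b on the opposite strand. Tmem198b was at 4.70 and 6.47 RPKM in WT and at 19.5 and 15.9 RPKM in Ebf2 KO, a 3.18-fold difference close to that of Mmp19. No source used here gives the strand setting of the counting, so reads of Mmp19 and Tmem198b cannot be told apart where they overlap.

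Mmp11 encodes stromelysin 3, an MMP that is activated by furin inside the cell. It had the lowest level of the family in both genotypes, 0.303 and 0.963 RPKM in WT and 2.03 and 2.16 RPKM in Ebf2 KO. The genotypes did not overlap, while the WT libraries differed 3.18-fold. The log2 difference of 0.95 (SE 0.253) understates the change at this level, and its call on RPKM (limma adjusted p = 0.0316) was lost after centring (0.12) and without WT replicate 1 (0.134), Ebf2 KO replicate 1 (0.052) or Ebf2 KO replicate 2 (0.121). Its value in the authors' deposited table was 1.17 (log2) with an FDR of 0.127. Chchd10, which shares 5.58% of the exon bases of Mmp11 on the opposite strand, went the other way, from 970.4 and 650.2 RPKM in WT to 368.7 and 157.5 RPKM in Ebf2 KO.

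The membrane-type enzymes varied mostly among the WT libraries. Mmp14, the main collagenase at the cell surface, was at 1.85 RPKM in WT replicate 1 and 9.53 RPKM in WT replicate 2, and at 8.20 and 11.8 RPKM in Ebf2 KO. WT replicate 1 stood apart, and WT replicate 2 lay between the Ebf2 KO libraries. The log2 difference between genotypes was 0.98 (SE 0.546, limma adjusted p = 0.189). It was 0.041 without WT replicate 1 (limma adjusted p = 0.936) and 1.93 without WT replicate 2 (limma adjusted p = 2.75e-06), so the value turns on which WT library is used. With a WT library left out, the single WT library left is assumed to vary like the Ebf2 KO libraries, and such p-values, here and for the other genes, rest on that assumption. Mmp15, the second membrane-type enzyme, was at 1.74 and 4.88 RPKM in WT and at 3.36 and 4.26 RPKM in Ebf2 KO, both of which lie between the WT values. Its log2 difference was 0.25 on RPKM (SE 0.378, limma adjusted p = 0.608) and -0.27 after centring (SE 0.252, limma adjusted p = 0.498), so its direction turned with the scaling without passing the threshold.

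Timp2 was the inhibitor with the largest rise. It was at 4.83 and 11.9 RPKM in WT and at 28.8 and 45.9 RPKM in Ebf2 KO, with no overlap between the genotypes. The mean went from 8.38 ± 5.02 to 37.3 ± 12.1 RPKM (SD, n = 2 each), a 4.46-fold rise. The log2 difference was 2.11 (SE 0.392, limma adjusted p = 0.0114) on RPKM and 1.58 (SE 0.309, limma adjusted p = 0.00673) after centring. It was 1.53 without WT replicate 1 and 2.68 without WT replicate 2. It did not pass when WT replicate 1 was left out after centring (limma adjusted p = 0.0604).

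Timp1, an X-linked inhibitor of many secreted MMPs that acts weakly on MMP14, was at 2.03 and 1.55 RPKM in WT and at 3.91 and 6.41 RPKM in Ebf2 KO. The genotypes were apart, with Ebf2 KO replicate 2, the library with the low Xist value, the highest. The log2 difference of 1.12 (SE 0.292) passed on RPKM (limma adjusted p = 0.0302). It did not pass after centring (0.118) or without Ebf2 KO replicate 2 (0.239).

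Timp3, the inhibitor that binds to the matrix and also blocks the sheddase ADAM17, was at 17.97 and 15.73 RPKM in WT and at 26.3 and 30.6 RPKM in Ebf2 KO. The genotypes did not overlap, and the rise was 1.69-fold, where the median of the same ratio of means over all genes was 1.57. The log2 difference of 0.72 (SE 0.206, limma adjusted p = 0.0382) was 0.20 after centring (SE 0.269, limma adjusted p = 0.653), and the call on RPKM was lost without Ebf2 KO replicate 1 (0.076) or 2 (0.248). Timp3 was at 0.091 (log2, FDR 0.897) in the authors' deposited table.

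Timp4, the member with the highest mean level in WT and an inhibitor known to be abundant in adipose tissue, was at 27.2 and 20.7 RPKM in WT and at 25.2 and 27.0 RPKM in Ebf2 KO. The genotypes overlapped, and the means of 23.96 ± 4.57 and 26.1 ± 1.26 RPKM (SD, n = 2 each) were close. The log2 difference was 0.13 (SE 0.216, limma adjusted p = 0.651) on RPKM, -0.40 (SE 0.295, limma adjusted p = 0.389) after centring and -0.55 (FDR 0.245) in the authors' deposited table. Timp4 passed the threshold in 0 of 16 settings.

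**Figure D2:**
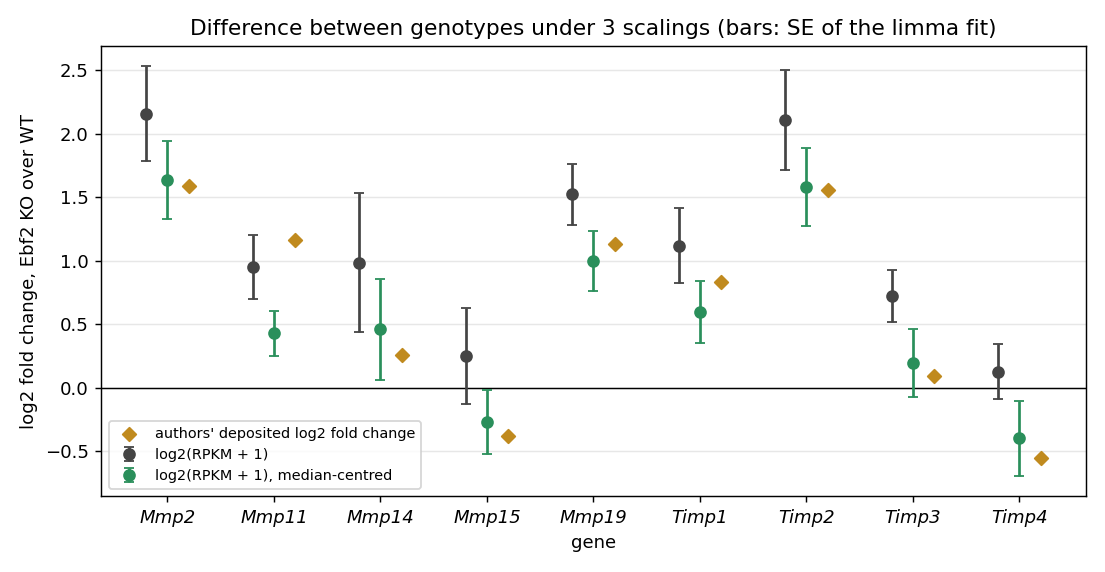
Log2 fold change of Ebf2 KO over WT for each member on log2(RPKM + 1), after median centring (points with bars, SE of the limma fit over 2 libraries per genotype), and in the authors' deposited table (diamonds, no error given). Of the 3 members called under each scaling, Mmp2 is at 1.63, Timp2 at 1.58 and Mmp19 at 0.997 after centring, while Mmp15 and Timp4 change sign between RPKM and the other scalings without passing a test.

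The order of levels differed between the genotypes. In WT the highest mean RPKM was that of Timp4, followed by Timp3, and the values of these 2 inhibitors did not overlap. Timp2, Mmp2, Mmp14, Mmp19, Mmp15 and Timp1 came next, each overlapping its neighbour in that order, and Mmp11 was lowest. In Ebf2 KO, Timp2 and Mmp2 came first with overlapping values, and Timp3 and Timp4 followed, overlapping each other. Timp3 lay below both Mmp2 values but overlapped Timp2, at 26.3 and 30.6 against 28.8 and 45.9 RPKM. Mmp19 and Mmp14 followed, overlapping, then Timp1 and Mmp15, overlapping, and Mmp11 was again lowest.

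Ratios between members of 1 library do not depend on how libraries were scaled to each other. Timp4 was at 1.10 and 0.710 times the sum of the other TIMPs in WT and at 0.426 and 0.325 times that sum in Ebf2 KO. Both Ebf2 KO ratios were lower, with a difference of the mean log2 ratios of -1.24. Timp2 had the opposite pattern within the inhibitors, with 9.28% and 23.9% of the TIMP sum in WT and 34.2% and 41.8% in Ebf2 KO. With 2 libraries against 2, an exact permutation test cannot go below p = 0.333, so these ratios are given without a test. The ratio of Mmp2 to Timp2 was 0.908 and 0.974 in WT and 1.25 and 0.774 in Ebf2 KO, so the genotypes overlapped and the Ebf2 KO libraries lay on either side of WT. Mmp14 was at 0.383 and 0.799 times Timp2 in WT and at 0.285 and 0.257 times Timp2 in Ebf2 KO. Both Ebf2 KO ratios were below both WT ratios, though the WT libraries differed by more from each other than WT replicate 1 did from Ebf2 KO. The summed MMPs were at 0.227 and 0.625 times the summed TIMPs in WT and at 0.761 and 0.594 times in Ebf2 KO, with WT replicate 2 inside the Ebf2 KO range.

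**Figure D3:**
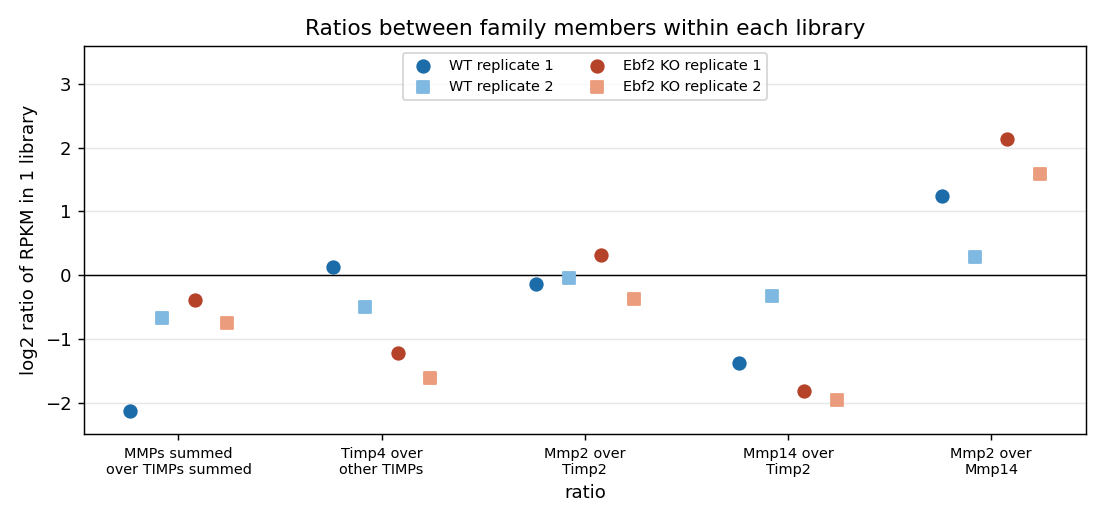
Log2 ratio of RPKM between members within each library, with 1 point per library. The ratio of Timp4 to the other TIMPs is at -1.23 and -1.62 in Ebf2 KO and at 0.13 and -0.49 in WT, whereas Mmp2 over Timp2 is scattered around 0 in all 4.

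Promoter windows in RefSeq (GRCm38.p6, from 250 bases before to 50 bases after the start) were found for 7 of the 9 measured members. Mmp2 and Mmp19, both called higher on RPKM and after centring, had no window, so no motif was searched there. They were searched on both strands for the EBF palindrome (TCCC and GGGA with 2 bases between them), the AP-1 motif TGANTCA and the GC box GGGCGG, motifs that do not overlap each other in letters. These letters are held by 0.904%, 7.81% and 35.7% of all 32851 windows. Shown are Timp2, which rose, Timp4, which did not pass, and Mmp14, the 1 member window with the EBF palindrome, with motif matches in capitals. The windows lie at chr11:118355362-118355661 (minus strand, Timp2), chr6:115252156-115252455 (minus strand, Timp4) and chr14:54431348-54431647 (plus strand, Mmp14).
Timp2: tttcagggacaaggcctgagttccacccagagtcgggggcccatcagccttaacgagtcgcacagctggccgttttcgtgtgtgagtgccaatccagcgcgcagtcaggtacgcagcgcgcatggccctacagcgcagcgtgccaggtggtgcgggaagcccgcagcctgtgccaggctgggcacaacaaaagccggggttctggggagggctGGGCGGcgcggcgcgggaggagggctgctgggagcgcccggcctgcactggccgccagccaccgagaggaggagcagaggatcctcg
Timp4: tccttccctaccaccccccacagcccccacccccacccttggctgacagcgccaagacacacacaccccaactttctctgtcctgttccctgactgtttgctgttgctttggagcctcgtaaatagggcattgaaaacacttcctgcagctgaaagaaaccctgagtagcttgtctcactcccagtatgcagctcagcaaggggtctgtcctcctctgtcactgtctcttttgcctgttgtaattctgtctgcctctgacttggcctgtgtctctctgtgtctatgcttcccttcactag
Mmp14: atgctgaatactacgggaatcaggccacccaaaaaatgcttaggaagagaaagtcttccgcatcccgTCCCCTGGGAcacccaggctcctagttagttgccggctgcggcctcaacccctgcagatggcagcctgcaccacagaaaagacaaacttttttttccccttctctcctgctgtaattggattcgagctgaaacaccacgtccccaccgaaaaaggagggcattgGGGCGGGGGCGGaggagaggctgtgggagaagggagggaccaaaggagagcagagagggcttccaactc
The window of Timp2 holds 1 GC box and 68.7% G and C, that of Timp4 none of the 3 motifs and 53.3% G and C, and that of Mmp14 the EBF palindrome and 2 GC boxes. The median window of all genes has 52.7% G and C. These matches describe letters only, and binding was not measured here.

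Genes that act with this family were compared in the same fit, by lists chosen with earlier results of these data known. Of 6 other measured MMPs, Mmp16 and Mmp23 rose on RPKM and 0 fell, and Mmp23 kept its call after centring. Both counts were 0 without Ebf2 KO replicate 2. Mmp23, a membrane-anchored enzyme, went from 3.28 and 7.57 RPKM in WT to 14.9 and 28.8 RPKM in Ebf2 KO (log2 difference 1.85, SE 0.404, limma adjusted p = 0.0181). The gelatinase Mmp9 was low throughout, at 0.347 and 0.1998 RPKM in WT and 0.767 and 0.623 RPKM in Ebf2 KO (limma adjusted p = 0.0894). Of 17 ADAM and ADAMTS proteases, relatives with a similar catalytic domain, 5 rose and 0 fell on RPKM (Adam10, Adam23, Adam33, Adamts2 and Adamts14), and Adam23 and Adam33 kept their calls after centring. The share of the list called higher is close to the 24.4% of all genes, its median log2 difference was 0.53 beside 0.46 for all genes, and both counts were 0 without Ebf2 KO replicate 2. Adam33 went from 0.593 and 2.43 RPKM to 4.16 and 7.39 RPKM (limma adjusted p = 0.0352), and Adam23 from 0.632 and 1.06 RPKM to 2.50 and 3.41 RPKM (limma adjusted p = 0.021). Adamts14, which trims procollagen, had a 2.77-fold higher mean RPKM that passed on RPKM (limma adjusted p = 0.0342) and not after centring (0.444).

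Of 21 activators, membrane partners and other regulators of MMPs, 8 rose and 0 fell on RPKM, and 3 rose and 1 fell after centring. Leaving out Ebf2 KO replicate 2 left 0 risers of this list on RPKM and 2 under centring, and leaving out WT replicate 1 left 1 under centring. Cd44, a hyaluronan receptor that anchors MMPs at the cell surface, went from 1.11 and 1.34 RPKM to 4.78 and 6.34 RPKM (log2 difference 1.55, SE 0.259, limma adjusted p = 0.00836). Pcolce2, an enhancer of procollagen processing, rose 5.19-fold (limma adjusted p = 0.0154), and Cav1, a membrane caveolin, rose 2.38-fold on RPKM (limma adjusted p = 0.015) but did not pass after centring (0.252). Reck, a membrane-anchored inhibitor of MMPs, and Lrp1, the receptor that clears MMPs and TIMPs from outside the cell, were named after their values were seen. Reck rose 4.13-fold on RPKM (limma adjusted p = 0.033) and did not pass after centring, while Lrp1 rose 3.34-fold (limma adjusted p = 0.0168) and passed both ways. The 1 regulator lower after centring was Bsg, also named after its values were seen, at 265.8 and 565.4 RPKM in WT and 188.6 and 189.0 RPKM in Ebf2 KO. Its centred call was lost without WT replicate 2 and without either Ebf2 KO library.

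The substrates were compared next. Of 7 fibrillar collagens, 5 rose and 1 fell on RPKM and after centring. Leaving out Ebf2 KO replicate 2 left 3 collagens called higher on RPKM, with 0 lower, and 0 higher under centring, as did leaving out WT replicate 1 under centring. Col3a1 went from 108.7 and 245.4 RPKM to 609.6 and 1150 RPKM (log2 difference 2.35, SE 0.442, limma adjusted p = 0.0118) and Col1a1 from 44.4 and 107.0 RPKM to 239.4 and 351.0 RPKM (limma adjusted p = 0.0135). Col27a1 fell, from 5.12 and 5.09 RPKM to 1.38 and 0.973 RPKM (limma adjusted p = 0.00827). Of 14 basement membrane genes, 5 rose and 0 fell on RPKM, and after centring 2 rose (Nid1 and Lama2) and 2 fell (Col4a5 and Agrn). Under centring, fewer of this list fell with any 1 library left out. Leaving out Ebf2 KO replicate 2 left 1 riser on RPKM, and under centring 0 were left without that library or WT replicate 1. Nid1, which links laminin to collagen IV, rose 3.78-fold and passed both ways (limma adjusted p = 0.00844), whereas the laminin chain genes Lama4 and Lamc1 rose 2.41-fold and 2.39-fold on RPKM only. Of 34 other matrix and crosslinking genes, 22 rose and 0 fell on RPKM, and 13 rose and 1 (P4ha1, a prolyl hydroxylase of collagen) fell after centring. P4ha1 lost its centred call with any 1 library left out. Leaving out Ebf2 KO replicate 2 left 6 risers on RPKM and 4 under centring, and leaving out WT replicate 1 left 2 under centring. Efemp1, a fibulin, rose 8.04-fold, the proteoglycan Lum 5.90-fold and the collagen VI chain Col6a1 3.34-fold. Over these 6 lists, 47 of 99 measured genes rose on RPKM and 26 after centring, beside 24.4% and 8.42% of all genes. Both counts fell without Ebf2 KO replicate 2, and the second also fell without WT replicate 1. The counts over all genes fell in the same settings too, but under centring by a smaller part. With either of these libraries left out under centring, the share of the lists called higher was no greater than that of all genes.

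**Figure D4:**
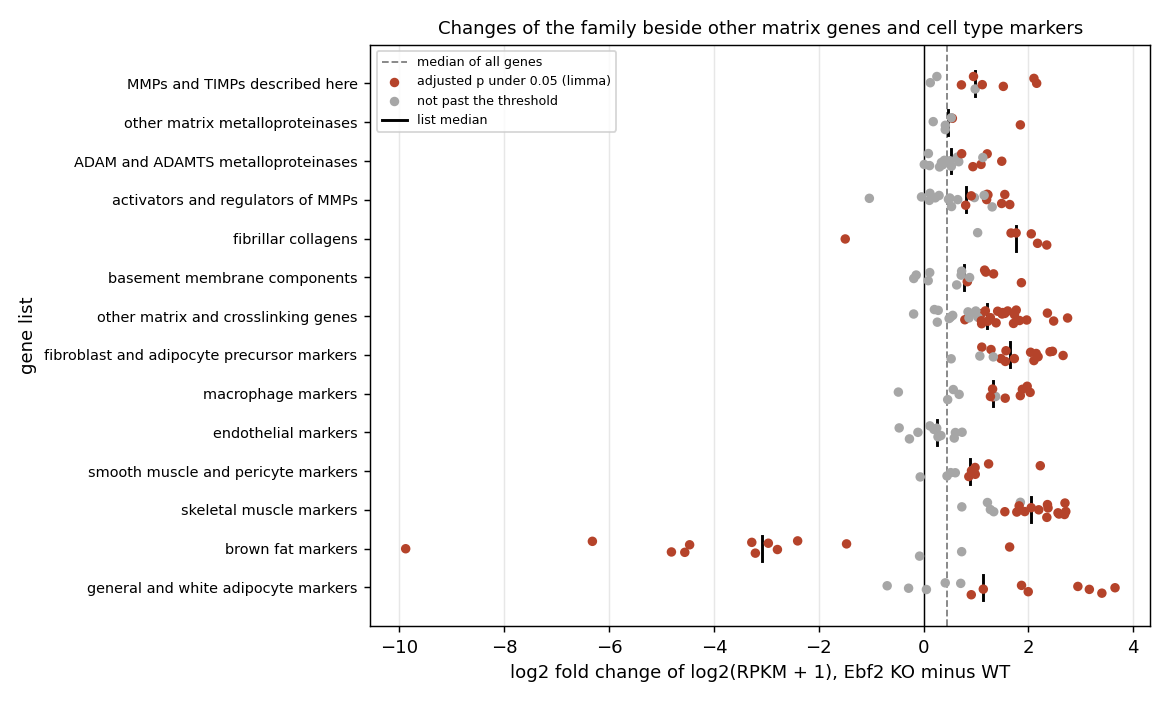
Log2 fold change of log2(RPKM + 1), Ebf2 KO minus WT, for the 9 members and for each gene of the other lists; red points passed limma's adjusted p of 0.05, black bars are list medians and the dashed line is the median of all genes (0.46). The median of the members (0.98) lies above that of the other MMPs (0.47) and below that of the fibrillar collagens (1.77). Among the other MMPs, Mmp9, Mmp16 and Mmp17 are under 1 RPKM in each library, a level at which this scale understates change.

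Markers of several other cell types of the tissue were also called higher in Ebf2 KO on RPKM, whereas endothelial markers were not. Of 16 fibroblast and adipocyte precursor markers, 13 rose and 0 fell on RPKM, and 9 rose after centring. Leaving out Ebf2 KO replicate 2 left 6 and 5 of them, and leaving out WT replicate 1 left 3 under centring. Their summed RPKM was 219.7 and 432.7 in WT and 992.1 and 1605 in Ebf2 KO. All 16 were higher in WT replicate 2 than in WT replicate 1, by a median of 2.11-fold, where 76.1% of all genes were higher in that library, with a median ratio of 1.28. Of the 9 members, 6 were higher in WT replicate 2: Mmp2, Mmp11, Mmp14, Mmp15 and Timp2 by 2.47-fold to 5.16-fold and Mmp19 by 1.19-fold. Timp1, Timp3 and Timp4 were lower there, at ratios of 0.763, 0.876 and 0.762. Of 19 skeletal muscle markers, 14 rose and 0 fell on RPKM, and 11 rose after centring. Under centring, fewer rose when WT replicate 1 was left out. Their sums were 1072 and 2868 RPKM in WT and 9973 and 10970 RPKM in Ebf2 KO. Of 13 macrophage markers, 8 rose on RPKM (4 without Ebf2 KO replicate 2) and 7 rose after centring (1 without WT replicate 1), with sums of 62.3 and 127.8 RPKM in WT and 327.4 and 296.1 RPKM in Ebf2 KO. The complement genes C1qa, C1qb and C1qc were 3.997-fold, 4.09-fold and 3.73-fold higher. Of 10 smooth muscle and pericyte markers, 6 rose on RPKM (1 without Ebf2 KO replicate 2) and 2 after centring (0 without WT replicate 1), with sums of 109.3 and 189.0 RPKM in WT and 394.4 and 395.3 RPKM in Ebf2 KO. Des, also a skeletal muscle gene, made up 29.2 and 63.2 RPKM of these sums in WT and 211.4 and 199.4 RPKM in Ebf2 KO. Of 11 endothelial markers, 0 rose and 0 fell on RPKM. After centring 2 (Flt1 and Eng) fell, as 2 did in the authors' deposited table. Under centring, fewer of these markers fell with any 1 library left out. On RPKM, several rose without WT replicate 2, where their median log2 difference was 0.69, beside 0.25 with all 4 libraries. Their sums were 179.2 and 324.0 RPKM in WT and 258.9 and 282.9 RPKM in Ebf2 KO. Of 14 brown fat markers, 11 fell and 1 (Lhx8) rose, and of 13 general and white adipocyte markers 8 rose and 0 fell on RPKM, 5 rose and 1 (Pparg) fell after centring, and 6 rose and 2 fell in the authors' deposited table. In whole tissue, more cells of a type and more RNA per cell cannot be told apart, and the part of these cell types in the differences of MMPs and TIMPs was not tested.

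Set against the summed fibroblast and precursor markers of the same library, a description chosen after the values were seen, Timp2 was at 22.0 and 27.6 RPKM per 1000 RPKM of markers in WT and at 29.0 and 28.6 in Ebf2 KO. Mmp2 was at 20.0 and 26.8 per 1000 in WT and at 36.4 and 22.1 in Ebf2 KO, which overlap. Timp4 was at 123.8 and 47.9 per 1000 in WT and at 25.4 and 16.8 in Ebf2 KO. Of the 9 members, 1 (Timp2) was above WT in both Ebf2 KO libraries on this scale, 4 overlapped and 4 (Mmp14, Mmp15, Timp3 and Timp4) were below. Per summed skeletal muscle markers 0 were above, 2 (Timp1 and Timp2) overlapped and 7 were below. Mmp2 was among these 7, at 4.09 and 4.05 per 1000 in WT and 3.62 and 3.23 in Ebf2 KO. Both marker sums were higher in Ebf2 KO, so a gene with unchanged RPKM would fall on these scales. The share of all genes above or below WT on them was not computed, so these counts are not set against it.

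The genes with the profile most like that of Mmp2, the most abundant MMP, were H19, Itgb1bp2 and Des, by the root mean square distance of centred log2(RPKM + 1) over the 4 libraries among the 5475 genes that averaged 5 RPKM or more. H19, an imprinted non-coding RNA, was at 329.2 and 833.6 RPKM in WT and at 2226 and 2383 RPKM in Ebf2 KO, a distance of 0.0588 log2 units. Itgb1bp2, which encodes melusin, a protein of striated muscle, and Des, the intermediate filament of muscle, were at distances of 0.0589 and 0.0646. The genes most like Timp4, the most abundant TIMP by the mean of all 4 libraries though not in Ebf2 KO alone, were Rbm39, Mrpl32 and Apopt1, at distances of 0.0182 to 0.0258. With 4 libraries such likeness is a description of these profiles.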

How the data were processed

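Polyadenylated RNA of 4 brown adipose tissue samples, 2 per genotype, was sequenced. Per the submitters' processing notes the authors used STAR, edgeR and the mm9 build; their versions, the gene annotation, the counting tool and its strand setting are given in none of the sources used here. The deposited table holds RPKM per library for 12165 genes, which the authors scaled by library and gene length. The authors' own log2 fold change, p-value and FDR are in the same deposited table, used only where named.

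Whole reads were recovered from the RPKM steps (100.0% of genes whole in the 4 libraries, within 0.001 reads) to give depth; the largest counting error of a member value was 8.57%. Differences were tested with limma 3.58.1 in R 4.3.3 on log2(RPKM + 1) with a variance trend, without a replicate block, and p-values were adjusted by Benjamini-Hochberg over all 12165 genes at 0.05. A fold change on this scale understates the change of low genes, and each fold of a gene between genotypes is the mean RPKM of Ebf2 KO over that of WT. No filter on low values was applied. On simulated data with 2 libraries per group, the test called 50 of 50 genes at a log2 change of 2, 23 of 50 at 1, and 3 of 11965 unchanged genes. The simulated libraries had the same small spread for every gene and no shift of most genes between groups, both unlike these data. These rates therefore need not hold here.

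The members and gene lists were chosen with earlier results of these data known. All members are named; from each other list, up to 3 genes with the smallest p among those called with a mean of at least 1 RPKM (the 2 most abundant if none passed), and the 3 nearest profiles of the most abundant MMP and TIMP. Other genes named (Adam10, Adamts2, Mmp9, Mmp16, Reck, Lrp1, Bsg, Lama2, Col4a5, Agrn, P4ha1, Flt1, Pparg, Lhx8, Xist, Tmem198b and Chchd10) were chosen after their values were seen. Alternatives were median centring, quantile normalization, a pseudocount of 0.1, a minimum mean of 5 RPKM, no variance trend, a replicate block, leaving out each library and the authors' deposited table; centring with a library left out, and levels per marker sum, were added after seeing the data. Sequences are from GENCODE M21 and RefSeq on GRCm38, and no coordinates were converted between builds.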

Additional observations from a re-analysis of the deposited data

How the results depend on the processing

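Mmp2 passed in all 16 settings and Timp2 in 15. The members called higher, 6 on RPKM, were 3 after median centring, 3 after quantile normalization and 3 by the authors' deposited table, and 3 to 7 with 1 library left out (1 to 3 with centring as well). Members called lower were 0 in each setting. All genes called higher, 2971 on RPKM, were 1024 after centring, 1048 after quantile normalization, 1717 under a minimum mean of 5 RPKM and 1325 in the authors' deposited table, and 810 to 4477 with 1 library left out (415, 724, 746 and 904 with centring as well). All genes called lower, 431 on RPKM, were 1253, 1010 and 1277 under centring, under quantile normalization and in the table the authors deposited, and 166 to 561 with 1 library left out (578, 727, 1092 and 1094 with centring as well). Over the 6 matrix lists, genes called higher, 47 on RPKM, were 26 after centring, 19 after quantile normalization and 28 under that minimum, and 10 to 68 with 1 library left out (3 to 31 with centring as well). Those called lower, 1 on RPKM, were 5, 3, 0 and 4 under centring, under quantile normalization, under the 5 RPKM minimum and in the table the authors deposited, and 0 to 2 with 1 library left out. The filter at a mean of 5 RPKM removed Mmp11, Mmp15 and Timp1. The cause of these shifts was not tested.

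Directions turned only for members that did not pass in the setting concerned. The log2 difference of Mmp15 was -0.27 after centring, -0.27 after quantile normalization, -0.38 in the authors' deposited table and -0.30 to 0.81 with 1 library left out (lowest without WT replicate 1); with centring as well it was -0.65 without WT replicate 1, -0.24 without Ebf2 KO replicate 1 and -0.30 without Ebf2 KO replicate 2. That of Timp4 was -0.40, -0.34 and -0.55 in the first 3 of these and -0.059 to 0.32 with 1 library left out (lowest without WT replicate 2); with centring as well it ran from -0.76 to -0.034 over the libraries left out, at -0.45 and -0.34 without Ebf2 KO replicate 1 or 2. With centring as well, Mmp14 was at -0.31 without WT replicate 1 and Timp3 at -0.067 without WT replicate 2.

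The replicate numbers are not stated to pair libraries, and with 2 pairs the deviations of same-numbered libraries correlated at 0.348 over genes. A fit with the replicate block called 6325 genes higher and 746 lower, 76 and 2 over the matrix lists, and 7 members higher, adding Mmp14 (limma adjusted p = 0.0178).

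With 2 libraries per genotype, 1 library decides several calls. The value of Mmp14 turns on which WT library is used, the call of Mmp11 on WT replicate 1 and on either Ebf2 KO library, that of Timp3 on either Ebf2 KO library and that of Timp1 on Ebf2 KO replicate 2.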
